A study of Mus musculus with 48 samples.

Results

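The methylation-enriched loci described here lie at the distal, telomeric ends of the mouse autosomes. A locus was taken when it lay on chromosomes 1 to 19 and its end was within 1000000 bp of the largest locus end on the same chromosome. This position rule used no read count and held for 1024 of 181949 autosomal loci (0.563%), out of 187695 loci in all. They are called distal loci below, and the other 180925 autosomal loci are the comparison. DNA came from the amygdala, the brain region that weighs threat and emotion, of male mice at 4 months of age, with 1 library per mouse. Their strain is C57BL/6 in the labels and C57BL/6N in the study's methods. The mice were Tph2+/+, Tph2+/- or Tph2-/-, with both, 1 or 0 intact alleles of Tph2, which encodes the rate-limiting enzyme of serotonin synthesis in the brain. Maternal separation (MS) took pups away from their mother for 3 h daily on postnatal days 2 to 15, and litters raised in the standard way of the facility were the controls (C), which gave 6 groups of 8 mice. MS was assigned to whole litters, and the litter of each mouse was not in the labels used. Each mouse was treated as an independent replicate, so p-values for MS may be too small if littermates share a group. The Tph2 deletion was constitutive, so cells outside the serotonin system lacked the gene too, and all adult mice had passed through behavioural tests before the tissue was taken. In bulk tissue a difference in methylation and a difference in cell makeup cannot be told apart, and DNA counts offer no marker RNA with which to check the dissected region.

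Mouse chromosomes have their centromere at one tip, so the end with the highest coordinates is the telomeric end of the long arm. A telomere consists of a short repeated hexamer that contains no CpG, the dinucleotide at which mammalian DNA is methylated. The sequence inside the telomere is often rich in repeats and recent duplications. Methyl-CpG-binding domain (MBD) capture pulls down DNA fragments by their methylated CpGs, so a locus yields more reads when it holds more CpG, when more of its CpG are methylated, or when the genome carries more copies of it.

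The sequences that the results turn on are given from the GRCm38 reference, plus strand, 5′ to 3′. The first 3 sequences are the middle 200 bases of the last locus of chromosomes 16, 1 and 11, taken as the 3 nearest to the last assembled base among the last loci of higher CpG density. Capitals mark CpG, the sites that MBD capture can read.
Last locus of chromosome 16, chr16:98103031-98103230: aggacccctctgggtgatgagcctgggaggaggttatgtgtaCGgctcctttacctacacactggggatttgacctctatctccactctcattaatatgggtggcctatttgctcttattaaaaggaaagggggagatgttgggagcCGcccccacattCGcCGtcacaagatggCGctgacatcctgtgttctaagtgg
Last locus of chromosome 1, chr1:195365781-195365980: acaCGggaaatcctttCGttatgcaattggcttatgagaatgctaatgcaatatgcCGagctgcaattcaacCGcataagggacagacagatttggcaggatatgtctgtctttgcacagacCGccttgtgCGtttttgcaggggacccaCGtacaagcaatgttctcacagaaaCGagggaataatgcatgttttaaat
Last locus of chromosome 11, chr11:121975838-121976037: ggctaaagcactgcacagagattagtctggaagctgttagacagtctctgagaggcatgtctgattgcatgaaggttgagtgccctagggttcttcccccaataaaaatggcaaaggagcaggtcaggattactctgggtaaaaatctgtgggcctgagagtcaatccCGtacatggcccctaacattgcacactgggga

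The last 3 are the middle 200 bases of the distal locus of highest count and of the 2 distal loci with the smallest p for MS, again with CpG in capitals.
Highest count, Tmem267 intron, chr13:119600447-119600646: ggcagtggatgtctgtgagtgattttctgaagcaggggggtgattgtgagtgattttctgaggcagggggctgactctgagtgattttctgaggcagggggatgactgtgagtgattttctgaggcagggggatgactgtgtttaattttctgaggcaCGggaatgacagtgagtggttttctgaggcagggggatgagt
MS, Vmn2r87 intron, chr10:130486676-130486875: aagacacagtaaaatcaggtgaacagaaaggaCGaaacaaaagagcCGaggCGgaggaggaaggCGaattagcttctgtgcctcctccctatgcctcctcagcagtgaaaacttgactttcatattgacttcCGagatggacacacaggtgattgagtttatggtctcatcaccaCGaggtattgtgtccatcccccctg
MS, near 2010315B03Rik, chr9:124316389-124316588: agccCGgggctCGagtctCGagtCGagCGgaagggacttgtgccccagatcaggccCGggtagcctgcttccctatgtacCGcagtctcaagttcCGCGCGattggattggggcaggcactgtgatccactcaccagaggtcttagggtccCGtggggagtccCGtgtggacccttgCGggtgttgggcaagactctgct
The 6 stretches range from 1 CpG, in those of Tmem267 and of the last locus of chromosome 11, to 13 in the stretch near 2010315B03Rik.

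Distal loci were sparser than loci elsewhere. The last megabases held 53.9 loci per Mb of reference, against 75.9 over the other autosomal sequence, and the density was lower in the last megabase on 16 of 19 chromosomes. Chromosome 14 had the fewest distal loci (27) and chromosome 4 the most (118). Chromosome 7 followed with 114, and on chromosomes 4, 7 and 16 the last megabase was denser than the rest of the chromosome. Pooled over chromosomes, the distal windows were richer in genes, with 14.3 starts of coding genes per Mb against 8.61 elsewhere. The number varied widely, from 1 to 45 per window with a median of 11, and was highest on chromosome 4. The distal windows held fewer CpG (7434.5 against 8517 per Mb), and per 1000 reference CpG there were 7.39 distal loci against 8.94 elsewhere. Unplaced bases made up 1.87% of the distal windows and 0.297% of the other sequence.

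**Figure D1:**
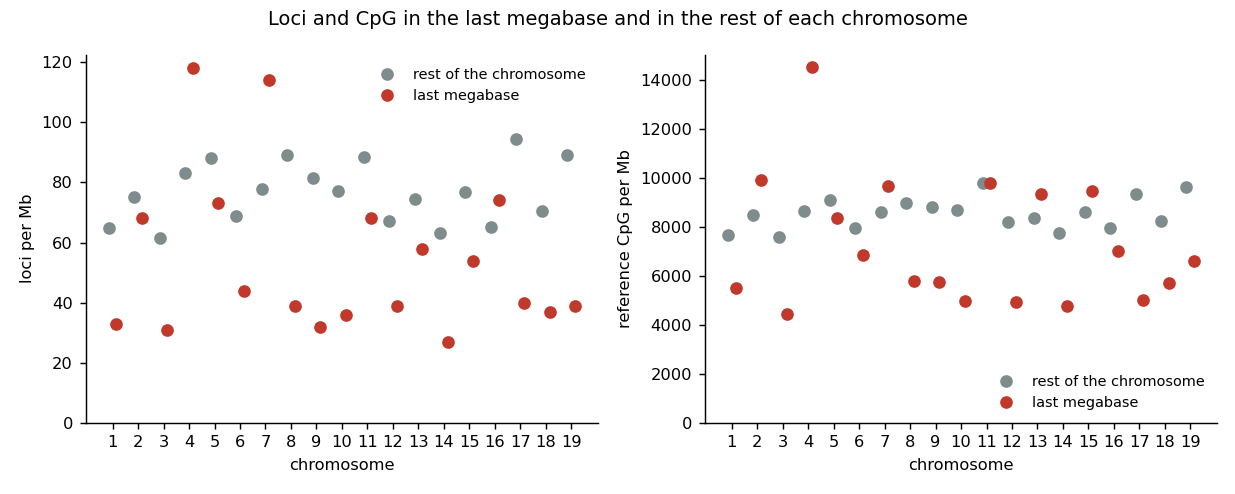
Loci per Mb (left) and CpG per Mb of the GRCm38 reference (right) for each autosome, in the last megabase (red) and in the rest of the chromosome (grey). The last megabase ranges from 27 loci on chromosome 14 to 118 on chromosome 4, and chromosome 4 also has the highest CpG number, 14547.

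The density changed within the distal megabase. It was 86.3 loci per Mb in the last 100 kb, fell to 45.5 between 250 and 500 kb, and stood at 49.9 between 750 and 1000 kb from the last locus. Farther in it rose to 147 per Mb between 5 and 10 Mb and came back to 75.8 between 20 and 50 Mb. The sparse stretch thus lay between a denser tip and a dense belt. The same order held per 1000 reference CpG. There were 11.95 loci in the last 100 kb, 6.48 between 250 and 500 kb and 12.98 between 5 and 10 Mb. Distance was counted from the last locus of each chromosome, so these 19 of the 164 loci in the last 100 kb lay there by rule. Part of the density of the tip is therefore fixed by the rule, and the density without them was not tested. Between 100 and 250 kb, which holds no such locus, there were 63.2 loci per Mb. The repeat content of the loci moved along with position. Their median repeat-masked share was 64.4% in the last 100 kb, 25.9% between 750 and 1000 kb and 18.2% between 5 and 10 Mb.

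**Figure D2:**
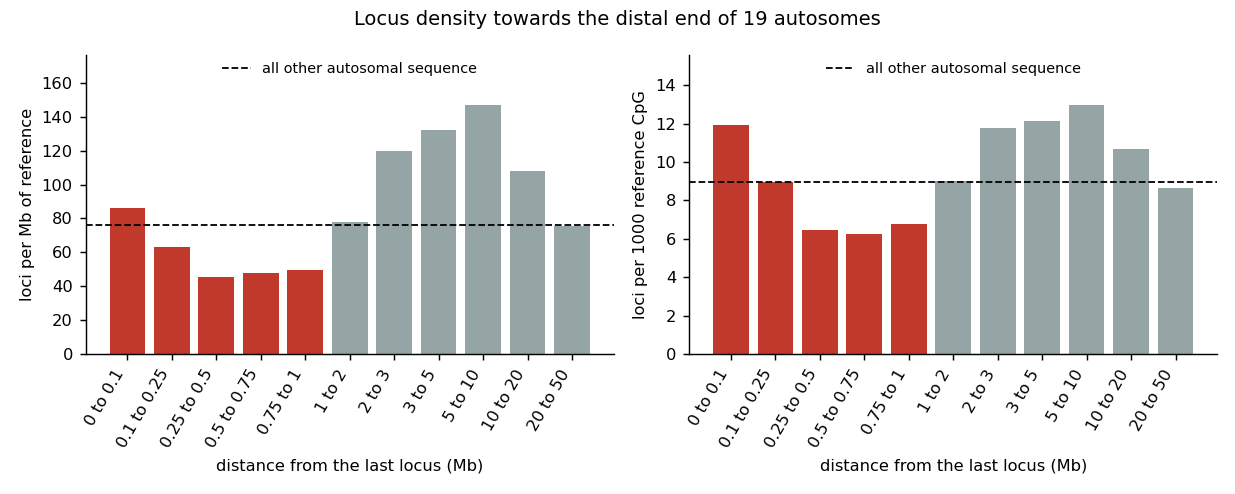
Loci per Mb of reference (left) and per 1000 reference CpG (right) by distance in Mb from the last locus, summed over 19 autosomes. Red bars are the last megabase, grey bars lie farther in, and the dashed line is the value over all other autosomal sequence. The lowest bars are at 0.25 to 0.75 Mb and the highest at 5 to 10 Mb.

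The 19 last loci themselves lay 0 to 103719 bp from the last assembled base, with a median of 12030 bp. Of these, 15 were intergenic and 13 were over 50% repeat. Their mean CPM, the read count scaled to a common library total with TMM normalisation, ranged from 1.23 to 9.41 with a median of 2.69, and their CpG density from 0 to 2.83 per 100 bp. The nearest loci on either side of the distance limit were alike. The farthest distal locus of each chromosome had a median of 2.01 CPM and 1.95 CpG per 100 bp, and the nearest locus outside had 2.49 CPM and 1.97 CpG per 100 bp.

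Distal loci were richer in repeats than the other autosomal loci. Their median repeat-masked share was 41.3% against 22.3%, and it was higher on 16 of 19 chromosomes. Of the distal loci 451 (44.04%) were over 50% repeat, against 23.6% elsewhere, and 160 (15.6%) were over 90% repeat, against 5.88%. Loci of the first megabase of each chromosome, at the centromeric end, had a similar median of 43.9% over 1388 loci. The distal loci were a little denser in CpG (1.91 against 1.80 per 100 bp, higher on 16 of 19 chromosomes) and a little wider (943 against 915 bp, on 15 of 19). Loci of the first megabase were similar in both, with medians of 1.88 CpG per 100 bp and 946 bp. The GC content of distal loci was 48.2% against 47.2% at the other autosomal loci.

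In relation to genes, 524 distal loci (51.2%) lay inside an annotated gene, against 56.9% elsewhere. Introns held 21.4% of them against 31.5%, and coding exons 19.9% against 18.5%. Within 1000 bp of a gene start lay 121 (11.8% against 7.21%). The lower share inside genes came with fewer loci in introns, while exons and gene starts held a share at or above that elsewhere. The 242 genes with a distal locus in their body were led by Tpcn2, a lysosomal cation channel gene, with 24 loci on chromosome 7. Gm42906, a predicted gene on chromosome 5, had 22, and Ano1, a calcium-activated chloride channel gene on the same chromosome as Tpcn2, had 20. The core motif of the insulator protein CTCF was searched on both strands of the middle 300 bases of each locus and occurred in 3 distal loci (0.293%) and in 0.646% of the others.

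Captured signal per length was slightly higher at distal loci, with a median of 2.83 CPM per kb against 2.72, and higher on 15 of 19 chromosomes. Loci of the first megabase had a similar median of 2.84 CPM per kb, so the trait was not particular to the telomeric end. The difference between distal and other loci was found in the most CpG-dense loci. In the highest quartile of CpG density 297 distal loci had a median of 4.15 CPM per kb and the other loci 3.28, whereas in the lowest quartile the medians were 2.49 and 2.52. At equal repeat content the values were close, with 3.17 against 3.13 CPM per kb above 50% repeat and 2.66 against 2.66 below. The spread between libraries of a group was also alike, with a median coefficient of variation of 27.9% at distal loci and 28.3% elsewhere. These are descriptions of positions on 1 genome and were not tested.

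For 292 distal loci (28.5%) the reference held a copy elsewhere, meaning 95% identity or more across 50% or more of the locus, and 189 had 10 or more. Loci with a copy had a median of 3.69 CPM per kb and 88.6% repeat, and those without 2.68 CPM per kb and 24.5% repeat. Together the 292 loci took 46.7% of the distal CPM. How reads that match several copies were counted was not given in the sources used here, so the counts of these loci may include reads of their copies, which was not tested.

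A few loci held much of the distal signal. Chromosome 13 took 19.9% ± 2.11 (SD, n = 48) of all distal counts with 58 loci, while the other chromosomes took 2.68 to 9.49%. The highest locus was an intron of Tmem267, a transmembrane protein gene (chr13:119595457-119605636), at 503 CPM or 49.5 CPM per kb. A locus across a coding exon of the same gene (chr13:119487453-119495621) had 247 CPM, and another (chr13:119605779-119618319) had 169 CPM. The 3 loci were 10180, 8169 and 12541 bp wide, and in the intron locus the most frequent word of 12 letters, TTTTCTGAGGCA, occurred 130 times on both strands together. It was present in 2 other distal loci, both on chromosome 9 and with 32 and 1 occurrences, and in the middle 300 bases of 0.293% of distal and 0.0160% of other autosomal loci. The intron locus ranged from 271.8 to 785 CPM over the libraries in the tests, and the 6 groups overlapped throughout.

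The other 2 loci of highest count each had several copies in the reference. A locus of 9074 bp in an intron of Grk5, a kinase that desensitises G protein-coupled receptors (chr19:60925120-60934193), had 69.5 CPM. A locus 2656 bp from Foxk2, a forkhead transcription factor gene (chr11:121312552-121319976), had 53.7 CPM and was 99.6% repeat. Both passed the limits of the study for MS and are taken up again below.

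The chromosome 10 end locus (chr10:130594226-130594993, intergenic, 1521 bp from the pseudogene Ftl1-ps2) was singled out after its values were seen. It ran up to the last assembled base and held 0 CpG in its 768 bp. The telomere hexamer TTAGGG occurred in it 63 times. The next distal locus held 7, both strands counted. With 0 CpG, its own sequence holds no site that MBD capture can read. Reads from other chromosome ends may be counted at this locus, which was not tested. The mean of the locus was 3.92 CPM (5.11 CPM per kb). At 62.2% its mean coefficient of variation within groups was the highest of the 1024 distal loci.

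Over the 8 Tph2+/+ C libraries this locus had 1.13 to 7.33 CPM with a median of 2.42, and over Tph2+/+ MS 1.87 to 9.63 with a median of 4.36. Tph2+/- C libraries spanned 1.38 to 5.25 (median 2.48) and Tph2+/- MS 1.53 to 7.10 (median 2.67). Tph2-/- C libraries spanned 1.10 to 3.83 (median 2.82) and the 6 Tph2-/- MS libraries in the tests 1.10 to 23.7 (median 4.59). The groups overlapped, and the high values sat in few libraries: the next value below 23.7 in Tph2-/- MS was 6.38. Averaged over genotypes the locus was higher in MS by 0.78 ± 0.26 (log2, SE; edgeR adjusted p = 0.222) and in Tph2-/- mice by 1.39 ± 0.46 (edgeR adjusted p = 0.655). Without the libraries numbered S18 to S26 the difference over genotypes was -0.04 (adjusted p = 0.994), and without Tph2-/- MS replicates 2 and 3 it was 0.57 (adjusted p = 0.399). The adjusted p ran from 0.112 to 0.994 over the 10 alternatives that gave one, and DESeq2 gave none for this locus. Among controls alone the locus was lower in the late-numbered libraries by 0.78 ± 0.24 (edgeR adjusted p = 0.190).

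The sample numbers of the labels bear on each comparison of MS with C. Control libraries carry S1 to S17 and S42 to S48, and MS libraries S18 to S41, so MS and the order of the numbers cannot be told apart and no range of numbers holds both. Totals ran from 7724481 to 14133801 counts per library. The study removed 2 Tph2-/- MS libraries that the labels do not name, and here the 2 of lowest total in that group, replicates 3 and 7, were left out of the tests. The CpG slope of a library, its log2 change in counts per SD of CpG density against the average library, measures how far its capture favoured CpG-dense loci. It averaged 0.117 over the 9 libraries S18 to S26, -0.0240 over S27 to S41, -0.0206 over the controls S1 to S17 and -0.0489 over S42 to S48. Summed over the 15 loci inside Tph2, the groups had medians of 36.7 to 42.7 CPM and overlapped, and none of these loci passed the limits for Tph2-/- against Tph2+/+, so the counts do not check the genotype labels.

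The mean share of autosomal counts in distal loci ran from 0.825% to 0.878% over the 6 groups. Tph2+/+ mice had 0.825% ± 0.033 as controls and 0.847% ± 0.046 after MS, and Tph2+/- mice 0.835% ± 0.041 as controls and 0.842% ± 0.047 after MS (mean ± SD, n = 8, without the 5 loci that each took over 0.5% of autosomal counts). Tph2-/- C mice had 0.833% ± 0.021 and Tph2-/- MS mice 0.878% ± 0.089, which became 0.848% ± 0.073 over the 6 libraries in the tests. All groups overlapped. The gap between the highest mean, in Tph2-/- MS, and the lowest, in Tph2+/+ C, was below the SD of Tph2-/- MS. It was above the SD of each other group. From CPM the MS difference in Tph2-/- was larger, as given in the last section. No test is given, since the share is a score over the members.

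The spread lay with a few MS libraries. The 5 highest shares were 1.03% in Tph2-/- MS replicate 3, 0.952% in Tph2-/- MS replicate 2, 0.951% in Tph2+/- MS replicate 1, 0.934% in Tph2+/+ MS replicate 1 and 0.912% in Tph2-/- MS replicate 4. All 5 carry numbers from S18 to S26, and their CpG slopes were 0.342, 0.238, 0.156, 0.0913 and 0.126. The next, Tph2-/- MS replicate 7, had 0.912% as well and a slope of 0.117, and it is S36. By number, the mean share was 0.903% ± 0.070 over S18 to S26 (n = 9), 0.827% ± 0.037 over S27 to S41 (n = 15), 0.839% ± 0.028 over controls S1 to S17 (n = 17) and 0.812% ± 0.035 over controls S42 to S48 (n = 7). With an offset for CpG density the mean over S18 to S26 was 0.879% and that over S27 to S41 0.835%. The part of capture in these values was not tested. Leaving out distal loci with a copy turned the direction of the MS difference. It went to -1.96, -0.529 and -3.30% of the control mean for Tph2+/+, Tph2+/- and Tph2-/-, from 2.60%, 0.813% and 5.37% over all distal loci. Copies were searched for distal loci alone, so other autosomal loci with copies stayed in the total. The turn is therefore not a comparison of like with like. With no locus left out of the autosomal total the differences were -2.13, 5.88 and 2.58% in the same order.

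**Figure D3:**
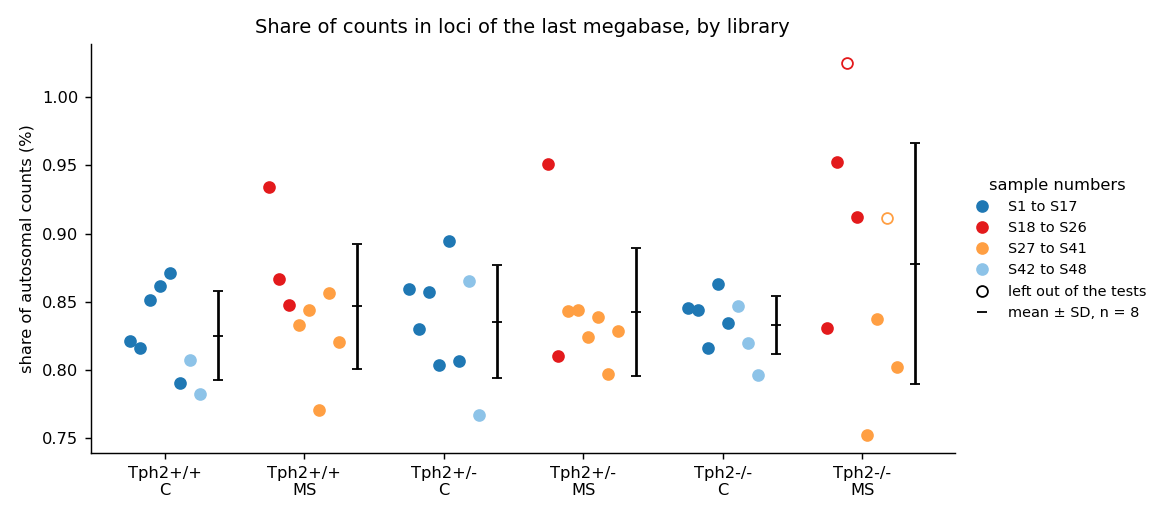
Percent of autosomal counts in loci of the last megabase for each of 48 libraries, by group, with colours for the sample numbers and open circles for the 2 libraries left out of the tests. Black marks are the mean and SD of 8 libraries. The 5 highest points, from 0.912 to 1.03%, are MS libraries numbered S18 to S26.

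Maternal separation was tested locus by locus with edgeR over all 187695 loci. The study's own limits were applied. A locus was called at a nominal p below 0.01 and a log2 fold change beyond 0.2. For MS against C averaged over genotypes 52 of 1024 distal loci were called. This is 5.08%, beside 3.63% of all loci and 3.50% of the other autosomal loci. In MS mice 32 were higher (3.13%, beside 2.28% of all loci) and 20 lower (1.95%, beside 1.35%). None passed an adjusted p of 0.05 with edgeR, against 24 (0.0128%) of all loci. DESeq2 gave an adjusted p to 174 distal loci and to 20302 loci in all, and 18 (10.3%) and 1226 (6.04%) of them passed. An unadjusted p under 0.05 was found for 146 distal loci (14.3%, beside 12.2%). The median log2 difference over the 1024 distal loci was 0.01, beside 0.00 over all loci. The calls lay on 17 of 19 chromosomes, with 8 on chromosome 6 and 5 on chromosome 11, and 24 were inside a gene.

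The called loci differed by direction in what they were made of. The 32 that were higher in MS had a median of 3.07 CpG per 100 bp and 83.8% repeat, and the 20 lower ones 1.72 CpG per 100 bp and 47.3% repeat. In the highest quartile of CpG density 30 of 297 distal loci were called, 25 of them higher, and this 10.1% compared with 5.91% of other autosomal loci of the same quartile. The split by direction was not particular to the distal loci, since 91.8% of the calls at those other loci were higher too, beside 83.3% at distal loci. Over the 3 lower quartiles 22 distal loci were called (3.03%, beside 2.69% of other autosomal loci), 7 higher and 15 lower, and 31.8% of the calls were higher, beside 38.2% elsewhere. CpG slope, sample number and MS moved together here, and their parts were not tested. Among the 732 distal loci without a copy 30 were called (4.10%, beside 3.63% of all loci, with or without a copy). Copies were searched for distal loci alone, so the share at loci without a copy elsewhere is not known.

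The count changed with the libraries S18 to S26, at distal loci and over the genome. Tph2-/- MS replicate 3 (S20), in this range, was already out of the tests. Leaving out the whole range kept 5 Tph2+/+, 6 Tph2+/- and 3 Tph2-/- MS libraries, a smaller set with less power. With S18 to S26 left out, 17 distal loci were called (1.66%, beside 1.26% of all loci), 3 higher and 14 lower. Of all calls without them 40.9% were higher, beside 62.9% with them. Of the 17 loci 8 were among the 52, which is 15.4% of the 52 and 47.1% of the 17, while 47 of the 52 kept the sign of their difference. With all 48 libraries 76 were called (7.42%, beside 5.79% of all loci), 56 higher and 20 lower. With Tph2-/- MS replicates 2 and 3 left out the count was 35 (3.42%, beside 2.58%), and with late control numbers as a covariate it was 32 (3.13%, beside 2.39%). An offset for CpG density left 35 calls (3.42%, beside 3.02%), 20 higher and 15 lower. Scaling by library totals alone gave 44 (4.30%, beside 3.23%), with 16 higher and 28 lower. Under that scaling 27.4% of all calls were higher, and the median over all loci moved to -0.05.

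**Figure D4:**
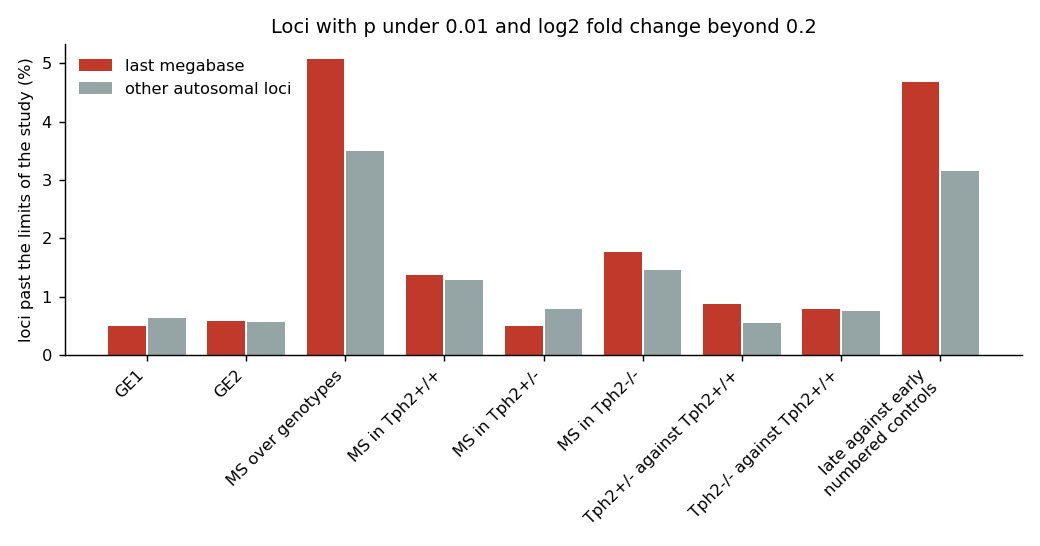
Percent of loci past the limits of the study (edgeR, p under 0.01 and log2 fold change beyond 0.2) in the last megabase (red) and at other autosomal loci (grey) for 8 contrasts and for late against early numbered controls. The tallest pairs are MS over genotypes, 5.08 against 3.50%, and the control libraries of unlike number, 4.69 against 3.16%.

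The smallest p for MS among distal loci belonged to an intron locus of Vmn2r87, a vomeronasal receptor gene of the pheromone-sensing family (chr10:130485365-130488186). Controls had 10.4 to 15.2 CPM in Tph2+/+ (median 12.6), 11.4 to 17.9 in Tph2+/- (13.8) and 11.8 to 16.3 in Tph2-/- (14.3). MS mice had 13.4 to 21.2 (16.6), 12.5 to 18.4 (16.6) and 13.5 to 24.6 (17.2) in the same order. MS medians were higher in all 3 genotypes and the ranges overlapped in each. The difference was 0.33 ± 0.07 (log2, SE; edgeR adjusted p = 0.0601). It was called under each of 11 alternatives, with a difference of 0.20 to 0.37 and an adjusted p of 0.00392 to 0.764. This locus is 99.8% repeat and 8 copies were found in the reference, so its reads may come from elsewhere.

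The next locus lay 3025 bp from 2010315B03Rik (chr9:124315721-124317256), with 78.3% repeat and 12 copies. Tph2+/+ libraries had 5.90 to 8.43 CPM in C (median 7.29) and 6.72 to 15.96 in MS (9.82). Tph2-/- libraries had 6.03 to 11.1 in C (8.61) and 6.34 to 18.2 in MS (11.7), and Tph2+/- medians were 8.47 and 9.29. The ranges overlapped in all genotypes. The difference was 0.37 ± 0.09 (edgeR adjusted p = 0.109). Without S18 to S26 it was 0.09 and with the CpG offset 0.19, and the call was lost in both, with adjusted p values from 0.0308 to 0.953 over 11 alternatives.

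The Grk5 locus and the locus near Foxk2, both among the 5 of highest count, were also called for MS. The Grk5 locus had medians of 63.0, 64.2 and 69.6 CPM in Tph2+/+, Tph2+/- and Tph2-/- controls and 74.6, 71.4 and 75.6 in MS, a difference of 0.23 ± 0.07 (edgeR adjusted p = 0.152). Over 11 alternatives it ran from 0.05 to 0.32, the adjusted p ran from 0.0373 to 0.948, and the call was lost in 3. The locus near Foxk2 had control medians of 50.7, 49.9 and 48.3 CPM and MS medians of 55.6, 51.3 and 57.6, a difference of 0.21 ± 0.07 (edgeR adjusted p = 0.187). It was called in 5 of 11 alternatives, with a difference of 0.04 to 0.26 and an adjusted p of 0.0490 to 0.974.

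**Figure D5:**
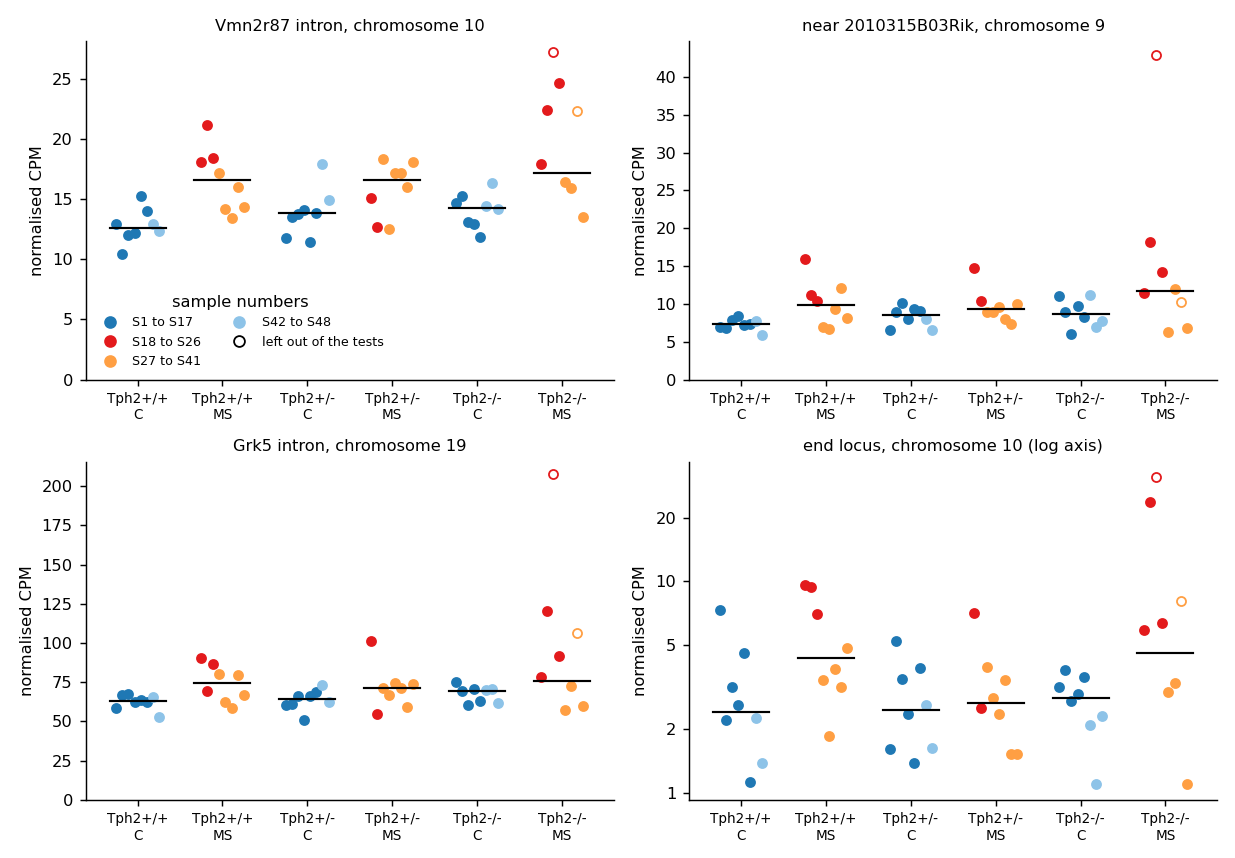
Normalised CPM of 4 distal loci in each library, by group, with the median of the libraries in the tests as a line, colours for the sample numbers and open circles for the 2 left-out libraries. The chromosome 10 end locus is on a log axis. Red points, S18 to S26, are among the highest MS values in each panel, up to 31.2 CPM at the chromosome 10 end locus in a left-out library.

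Within genotypes the calls were fewer. In Tph2+/+ mice 14 distal loci (1.37%, beside 1.31% of all loci) differed by MS, 9 higher (0.879%, beside 0.67% of all loci) and 5 lower (0.488%, beside 0.643%). In Tph2+/- mice 5 did (0.488%, beside 0.779%), 1 higher (beside 0.321%) and 4 lower (beside 0.458%). In Tph2-/- mice 18 did (1.76%, beside 1.48%), 14 higher (1.37%, beside 0.843%) and 4 lower (0.391%, beside 0.632%). The shares in Tph2+/+ and Tph2-/- were near those of all loci. None passed an adjusted p of 0.05 with edgeR or DESeq2, and an unadjusted p under 0.05 was found for 56, 41 and 84, which is 5.47, 4.00 and 8.20%, beside 6.52, 4.36 and 7.11% of all loci. The Tph2-/- count was 79 with all 48 libraries (7.71%, beside 5.37% of all loci), 68 of them higher, which is 86.1% of the calls, beside 77.9% over all loci. Without S18 to S26, which left only 3 Tph2-/- MS libraries in the fit, it was 17 (1.66%, beside 1.18%). Of these 1 was higher and 16 lower, so 5.88% of the calls were higher, beside 38.1% over all loci. Scaling by library totals gave 2 higher and 10 lower in Tph2+/+, 4 and 3 in Tph2+/-, and 6 and 4 in Tph2-/-. The control mice are shared between these contrasts and the average over genotypes.

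In Tph2+/+ mice the smallest p belonged to a locus 4000 bp from Tpcn2 (chr7:145181814-145182524). It had 0.266 to 2.49 CPM in C (median 1.05) and 1.395 to 3.14 in MS (2.35), which overlapped. The difference was 1.03 ± 0.25 (edgeR adjusted p = 0.605), and the call held under 11 of 11 alternatives. A noncoding exon of Gm11791, a predicted gene (chr11:121096438-121097318), had 1.69 to 4.06 CPM in C (2.56) and 0.851 to 2.01 in MS (1.63). Its difference was -0.76 ± 0.21 (edgeR adjusted p = 0.749).

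In Tph2+/- mice the 2 loci of smallest p were both lower in MS. A locus 25624 bp from Fgf14, whose intracellular growth factor homologue tunes sodium channels (chr14:124702751-124703199), had 0.870 to 3.03 CPM in C (median 1.70) and 0.191 to 1.68 in MS (0.522). The difference was -1.37 ± 0.37 (edgeR adjusted p = 1). The pseudogene Eif3s6-ps2 on chromosome 18 (chr18:90310989-90311660) had 1.67 to 2.65 CPM in C and 0.338 to 1.76 in MS, with a difference of -0.90 ± 0.28 (edgeR adjusted p = 1). The ranges overlapped at both. Counts were low, at 8 to 22 reads in C and 2 to 20 in MS near Fgf14, and at 17 to 30 and 4 to 22 for Eif3s6-ps2.

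In Tph2-/- mice the 2 loci were both higher in MS. An intron locus of Slc6a20b, of the family of amino acid transporters (chr9:123619640-123620662), had 2.09 to 4.16 CPM in C (median 3.06) and 3.72 to 7.68 in MS (4.95). The difference was 0.71 ± 0.18 (edgeR adjusted p = 0.591), and 45 copies of this locus were found. A locus 75020 bp from Ccnd1, the gene of the cell cycle regulator cyclin D1 (chr7:145014945-145017126), had 2.95 to 6.51 CPM in C (5.33) and 6.18 to 11.9 in MS (7.502). The difference was 0.61 ± 0.16 (edgeR adjusted p = 0.605). Both ranges overlapped at their edge. Without S18 to S26, with 3 Tph2-/- MS libraries left in the fit, both calls were lost, at 0.54 and 0.44.

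The interactions asked whether MS acted differently by genotype. GE1, the MS difference in Tph2+/- minus that in Tph2+/+ mice, called 5 distal loci (0.488%, beside 0.626% of all loci), 3 with a higher (0.293%, beside 0.312% of all loci) and 2 with a lower difference (0.195%, beside 0.314%). GE2, the same for Tph2-/-, called 6 (0.586%, beside 0.558%), 3 higher and 3 lower (each 0.293%, beside 0.297 and 0.262%). Both shares were near those of all loci. None passed an adjusted p of 0.05 with edgeR or DESeq2, and 38 and 26 had an unadjusted p under 0.05, beside 3.71 and 3.36% of all loci. Scaling by library totals moved GE1 to 10 higher and 0 lower, with the median over all loci moving from -0.01 to 0.15, and GE2 to 3 and 1. GE1 and GE2 share the Tph2+/+ mice.

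For GE1 the smallest p was at an intron locus of Nrp1, the neuropilin co-receptor of semaphorins and vascular growth factor (chr8:128448874-128449630). Its medians were 1.69 CPM in controls and 2.28 in MS for Tph2+/+, and 2.13 in controls and 1.65 in MS for Tph2+/-, so the MS difference had opposite signs in the 2 genotypes. The interaction was -1.01 ± 0.32 (edgeR adjusted p = 1), and with library totals alone the call was lost at -0.87. The Gm11791 exon was next at 0.90 ± 0.29 (edgeR adjusted p = 1), with medians of 2.78 and 2.82 CPM in Tph2+/- C and MS.

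For GE2 a Gm36447 intron locus (chr5:150836534-150837322) had medians of 2.09 CPM in controls and 1.32 in MS for Tph2+/+, and of 1.55 in controls and 2.25 in MS for Tph2-/-. The interaction was 1.19 ± 0.36 (edgeR adjusted p = 1) and 0.67 without S18 to S26, where the call was lost. A locus 3817 bp from Prkcz, the gene of an atypical protein kinase C (chr4:155365178-155366004), went the other way, with medians of 1.93, 2.56, 2.17 and 1.61 CPM in the same order. Its interaction was -1.05 ± 0.32 (edgeR adjusted p = 1), and it was called in 11 of 11 alternatives. All 6 groups overlapped at both loci.

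Genotype called few distal loci. Tph2+/- against Tph2+/+ called 9 (0.879%, beside 0.546% of all loci), 6 higher (0.586%, beside 0.266%) and 3 lower (0.293%, beside 0.28%). Tph2-/- against Tph2+/+ called 8 (0.781%, beside 0.748%), 6 higher (0.586%, beside 0.331%) and 2 lower (0.195%, beside 0.417%). None passed an adjusted p of 0.05 with edgeR or DESeq2, where 4 (0.00213%) and 26 (0.0139%) of all loci did with edgeR. An unadjusted p under 0.05 was found for 38 and 49 distal loci, beside 3.47 and 4.08% of all loci. With library totals the Tph2-/- split was 5 higher and 0 lower. A locus 76648 bp from Gm6313 (chr6:148529443-148530138) was higher in Tph2+/- mice, with medians of 1.24 and 1.06 CPM in Tph2+/+ C and MS and 1.90 and 1.92 in Tph2+/- C and MS. The difference was 0.68 ± 0.20 (edgeR adjusted p = 1), and the ranges overlapped.

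An intron locus of Fam3b, which encodes a secreted cytokine-like protein (chr16:97485582-97486053), was lower in Tph2+/- mice by 0.72 on the log2 scale (SE 0.24, edgeR adjusted p = 1). Its medians were 1.36 and 1.38 CPM in Tph2+/+ C and MS and 0.730 and 0.838 in Tph2+/-. In Tph2-/- mice the Gm11791 exon was higher by 0.47 ± 0.15 (edgeR adjusted p = 1), with medians of 2.56 and 1.63 CPM in Tph2+/+ C and MS and 2.99 and 2.37 in Tph2-/-, so the lowest of the 4 was Tph2+/+ MS. An untranslated exon of B230307C23Rik (chr16:98031075-98032170) was higher by 0.44 ± 0.14 (edgeR adjusted p = 1), with medians of 2.32 and 2.25 CPM in Tph2+/+ C and MS and 3.19 and 2.80 in Tph2-/-. At both loci the ranges overlapped.

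Control libraries of unlike number differed about as often as MS from C did. Among the 24 controls, with genotype in the model, 48 distal loci (4.69%, beside 3.29% of all loci) differed between S42 to S48 and S1 to S17, 15 higher (1.46%, beside 1.45% of all loci) and 33 lower (3.22%, beside 1.84%) in the late numbers. Of these 5 passed an adjusted p of 0.05, beside 314 of all loci (0.167%). The lower loci had a median of 3.06 CpG per 100 bp and the higher ones 1.44, so CpG-dense loci moved opposite to their direction in MS mice, and 26 of the 27 calls in the highest CpG quartile were lower. The locus of smallest p lay on an untranslated exon of Gmeb2, a transcription factor gene that binds glucocorticoid modulatory elements (chr2:181287528-181288320), and with 12.99 CpG per 100 bp it was the most CpG-dense distal locus. It was lower by 1.17 on the log2 scale in the late numbers (SE 0.24, edgeR adjusted p = 0.0101), and its MS difference was 0.05.

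Of the other 4, a locus near Rnf223 on chromosome 4 (adjusted p = 0.0323) and the Tmem267 exon locus of 247 CPM (adjusted p = 0.0467) were lower by 0.42 and 0.38 on the log2 scale (edgeR). A locus near AC116799.1 on chromosome 18 and another near Gm20767 on chromosome 13, both 100% repeat, were higher by 1.16 and 0.69 (adjusted p = 0.0213 and 0.0286). None of the 5 passed the limits for MS over genotypes.

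Genes of 4 lists were looked up for distal loci in their body. Of 27 genes of the nervous system 16 had a distal locus in their body, 63 loci in all. These gave 3 calls over the 8 contrasts, all higher in MS, which is 0.595% of 504 tests, beside 1.21% over all loci. They were an intron locus of Fgf14 in Tph2+/+ mice (0.35 ± 0.11, edgeR adjusted p = 0.749), a coding exon of Eef1a2, a translation elongation factor of neurons and muscle, in Tph2-/- mice (0.71 ± 0.25, edgeR adjusted p = 0.656), and the Grk5 locus over genotypes. The median log2 difference for MS over the 63 loci was 0.08, beside 0.00 over all loci. These 63 loci had a median of 2.09 CpG per 100 bp, beside 1.80 at other autosomal loci, and the part of CpG density was not tested.

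Fgf14 had 10 distal loci with a summed 81.0, 80.0 and 86.4 CPM (medians) in Tph2+/+, Tph2+/- and Tph2-/- controls and 95.7, 85.1 and 93.1 in MS. Agrn, whose product agrin organises the neuromuscular synapse, had 6 loci with 39.7, 39.9 and 40.8 CPM in controls and 43.9, 40.7 and 45.8 in MS. All groups overlapped for both genes.

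The list of telomere and chromosome maintenance had 4 of 13 genes with a distal locus, 6 loci and 0 calls. Of these genes Rtel1, a helicase that regulates telomere length, is the 1 that acts at telomeres. Its 1 locus had medians of 1.44, 1.19 and 1.12 CPM in controls and 1.12, 1.38 and 1.23 in MS. Dok6, an adaptor of neurotrophic receptor signalling, had 29.6, 30.2 and 29.8 CPM over 3 loci in controls and 32.4, 28.7 and 33.8 in MS. Mettl4, a nucleic acid methyltransferase gene, had 1 locus at 1.65, 2.09 and 1.65 CPM in controls and 1.45, 1.65 and 1.43 in MS. The median MS difference over the 6 loci was 0.10.

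Of 17 immune signalling genes 4 had a distal locus, 5 loci and 0 calls, with a median MS difference of 0.04. Itga5, the fibronectin receptor subunit, had medians of 8.08, 7.97 and 8.57 CPM in controls and 7.70, 7.72 and 8.45 in MS. Fadd, the adaptor of death receptors, had 2.22, 2.01 and 2.64 in controls and 2.37, 2.47 and 2.19 in MS, and the groups overlapped for both genes.

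Of 14 growth factor and transcription factor genes 9 had a distal locus, 20 loci with a median MS difference of -0.02. The 2 calls, 1.25% of 160 tests beside the same 1.21%, were at 1 intron locus of Macc1, a regulator of growth factor receptor signalling (chr12:119345844-119346941), higher in MS by 0.40 ± 0.12 over genotypes (edgeR adjusted p = 0.164) and by 0.74 ± 0.21 in Tph2-/- mice (edgeR adjusted p = 0.631). Summed over its 4 loci, Macc1 had medians of 12.8, 10.8 and 10.4 CPM in controls and 11.9, 12.9 and 12.4 in MS. Prdm15, a zinc finger gene with 5 loci, had 12.2, 10.8 and 12.5 in controls and 12.1, 12.5 and 11.8 in MS. Fgf4, a fibroblast growth factor gene of the early embryo, had 7.51, 7.47 and 8.27 over 3 loci in controls and 7.90, 7.57 and 7.28 in MS.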

How the data were processed

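Methylated DNA of the amygdala was enriched by MBD capture and read as 50 bp paired ends. According to the study's methods and the submitters' processing notes, the authors aligned reads to GRCm38 with Bowtie2 2.1.0, called peaks, merged them over libraries and counted reads with DiffBind 2.0.9. The deposited values are whole-number counts per locus, not normalised. How duplicate and multiply mapped reads were treated was not given in the sources used here.

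Libraries were grouped by their labels. The 2 Tph2-/- MS libraries of lowest total were left out of the tests, which kept 46 of 48. Counts were scaled by TMM and tested with the quasi-likelihood F-test of edgeR 4.0.16 (R 4.3.3), 1 term per group, over all 187695 loci, with p-values adjusted by Benjamini-Hochberg. CPM are TMM-normalised. Totals of 7724481 to 14133801 counts per library gave a median mean count of 29.5 per distal locus, and 47 distal loci had a count of 0 in some library. CpG, repeats and gene classes came from GRCm38 and its annotation, and copies were found with minimap2 2.31. The step was tested on simulated counts with changes planted in Tph2-/- mice alone. They held no difference in CpG slope or sample number, so this does not bear on the MS calls.

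Alternatives were DESeq2 1.42.0 and its size factors, library totals, a low-count filter, other library sets, late control numbers as a covariate, a CpG offset, a replicate block, and windows of 500000 and 2000000 bp. Those on copies, on the 3 loci of highest count and on the share without the 2 libraries were chosen after seeing the data.

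Members and gene lists were chosen with earlier results of these data known. Loci were named as the 5 of highest CPM, the 2 of smallest p past the limits in each of the 8 contrasts (up to 5 where an adjusted p was under 0.05), the 3 genes with most loci in each list, and the last locus of each chromosome. Some items that this rule names are not reported here. The loci near Ftl1-ps2 and those of the late-numbered controls were named after their values were seen. The same-numbered libraries of different groups had a median correlation of 0.015 (12 of 120 over 0.1), so the numbers do not pair them.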

Additional observations from a re-analysis of the deposited data

Results flagged for a closer look

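In 14 of 198 sets of libraries examined, 1 library stood far from the rest of its group by Dixon's test, and chance gives about 1 in 20. The distal share of 1 Tph2+/- MS library was 0.951%, beside a group median of 0.834%. In that group single libraries, not the same one each time, also stood apart at Grk5 (101 CPM, median 71.4), near Prkcz (3.74, median 2.31), near 2010315B03Rik (14.7, median 9.29), at Fam3b (1.95, median 0.838) and near Ftl1-ps2 (7.1, median 2.67), and in the sum over Fgf14 (142, median 85.1). The library of high share is in S18 to S26 and that of the Prkcz value in S27 to S41.

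In Tph2+/+ MS, single libraries stood apart at the Tmem267 exon locus (425 CPM, median 254), near Fgf14 (2.63, median 0.608), and in the sums over Dok6 (53.6, median 32.4) and Macc1 (15.4, median 11.9). They were not the same library each time, since the Tmem267 value was in S18 to S26 and the Fgf14 value in S27 to S41. In Tph2-/- MS a single library stood apart near Ftl1-ps2 (23.7, median 4.59), as did one for the sum over Agrn (86.9, median 45.8). In Tph2+/+ C a library had 2.49 CPM near Tpcn2 (median 1.05). No interaction of genotype and MS passed an adjusted p of 0.05 at a distal locus with edgeR or DESeq2, while 38 (GE1) and 26 (GE2) had an unadjusted p under 0.05 with edgeR.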

How the results depend on the processing

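Under the alternatives 24 summary values moved by more than 1 SD between libraries or chromosomes, or for counts by more than 1.5 times, and 165 by less. That SD is wide beside the share differences and the repeat ratio. From CPM the distal share of Tph2-/- differed from that of Tph2+/+ mice by 8.22% and in loci without a copy -1.44%, against 2.36%, and in the last 2000000 bp the repeat ratio was 1.14, against 1.85. Scaling by library totals gave 10 calls for GE1, 10 for MS in Tph2-/- and 5 for Tph2-/- against Tph2+/+. Without S18 to S26 there were 12 calls for GE1 and 17 for MS over genotypes. With late control numbers as a covariate there were 32 for MS over genotypes, 9 in Tph2+/- and 9 in Tph2-/-. All 48 libraries gave 7 for MS in Tph2+/+ and 79 in Tph2-/-, and DESeq2 gave 8 in Tph2+/-. In the last 500000 bp 0.179% of loci were called for GE1 and 0.357% for GE2, and in the last 2000000 bp 0.759% for MS in Tph2+/-.

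The distal share over all libraries, 0.843%, was 0.603% of all autosomal counts, 0.589% from CPM, 0.425% in the last 500000 bp, 1.61% in the last 2000000 bp, 0.776% by distance from the reference end, 0.709% without the 3 highest loci and 0.447% in loci without a copy. The MS difference in Tph2-/- was 19.2% from CPM and -3.3% in distal loci without a copy, with other copied loci kept in the total. The ratio of distal to other width was 1.13 by means. The cause was not tested.

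With the replicate block there were 4 calls for GE1, 5 for GE2, 49 for MS over genotypes, 16, 7 and 19 for MS in Tph2+/+, Tph2+/- and Tph2-/-, 9 for Tph2+/- and 7 for Tph2-/- against Tph2+/+. For the loci named for a contrast, 170 values kept their call and direction, 6 lost the call and 0 reversed. These loci were picked for a small p in the main fit, and the alternatives share most of its libraries, so the tally is no independent check. It leaves out Grk5 and the loci near Foxk2 and Ftl1-ps2, called for MS over genotypes in 8, 5 and 8 of 11 alternatives. Low counts limit single loci.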
